A study of Mus musculus with 10 samples.

Results

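The nuclear genes of mitochondrial oxidative phosphorylation were followed through 5 cell populations of the postnatal mouse hair follicle and its dermis. Members were taken by symbol alone: every gene of the platform annotation whose symbol begins with Nduf, Uqcr, Cox and a digit, or Atp5, together with Sdha, Sdhb, Sdhc and Sdhd. This gave 90 genes of 12393 named on the array, 33 of complex I, 4 of complex II, 8 of complex III, 10 of complex IV and 17 of complex V, with 6 tissue-restricted forms of complex IV subunits and 12 assembly or associated genes. Where a gene had several probe-sets, as 48 of them did, the probe-set with the highest mean stood for it. All populations came from the backskin of P4 mice doubly transgenic for Lef1-RFP and K14-H2BGFP, which carry a red fluorescent protein under a fragment of the human Lef1 promoter and a green histone under the keratin 14 promoter. The strain was not given in the sources used here. Matrix (Mx) cells, the dividing progenitors of the hair shaft, were gated as low in GFP without RFP, and outer root sheath (ORS) cells, the outer epithelial layer of the follicle, as high in GFP without RFP. Dermal papilla (DP) cells, the mesenchymal core of the hair bulb, were RFP-high and GFP-negative, and the dermal fraction (DF), which is enriched in fibroblasts, lacked both proteins. Both were sorted after cells with CD34, CD45 or CD117 had been removed. Melanocytes (Mc) were RFP-high and CD117-positive. Each population was hybridised to 2 arrays, which the study's methods describe as fully independent datasets, each from pooled skins of several animals. The sort rests on 2 transgenes, and no group was treated.

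Oxidative phosphorylation is the last stage of respiration. Complex I (NADH dehydrogenase) and complex II (succinate dehydrogenase, also an enzyme of the citric acid cycle) pass electrons to ubiquinone, complex III passes them to cytochrome c, and complex IV (cytochrome c oxidase) to oxygen. Complexes I, III and IV pump protons, and complex V (ATP synthase) makes ATP from the gradient. Most subunits are encoded in the nucleus and a small set in mitochondrial DNA, so that subunits of both origins are joined by dedicated assembly factors. None of 15 mitochondrially encoded genes looked for was named in the annotation, and the values below concern nuclear genes.

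Signals are intensities on a linear scale, computed by the authors with MAS 5.0. Differences were tested with limma on log2(signal + 50), so that fold changes of dim genes are understated. A probe-set was tested where its signal reached 200 on both arrays of at least 1 population. Of the 90 members 79 passed, and 75 (83.3%) reached 200 on all 10 arrays, against 17.4% of all genes named. Complexes II, III and V were tested in full. Left out as too dim were Ndufb1 of complex I, Cox7c of complex IV, the assembly genes Cox15, Cox16, Ndufaf1, Ndufaf5 and Ndufaf7, and the tissue-restricted Cox4i2, Cox6a2, Cox7a1 and Cox8b.

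Several facts of the arrays touch what follows. Mx replicate 1 stood apart for these genes. The probe-sets of all members made up 3.04% of its summed signal, against 2.17% in Mx replicate 2 and 1.49% to 2.25% on the other 8 arrays. Its actin 3′ to 5′ signal ratio was 2.09 (1.22 to 1.73 elsewhere), and its median signal of 49.9 was the lowest of the 10. The same ratio for Gapdh did not stand apart, at 1.02 beside 0.79 to 1.19 elsewhere. Of the 79 tested members 72 were higher on Mx replicate 1 than on Mx replicate 2, by a median of 0.57 on the log2 scale, while the median over all tested probe-sets was −0.14. In the other 4 populations the median gap of the members between replicates lay between 0.01 and 0.07. Among the markers tested, all 10 of matrix and hair shaft were higher in Mx and all 9 of outer root sheath in ORS. All 9 of dermal papilla were higher in DP, all 11 of melanocytes in Mc and 6 of 7 of fibroblasts in DF. Of 12 dermal papilla markers on the array 9 reached the bound, all in DP. In Mc 1 did so and in Mx, ORS and DF 0, so the filter largely fixed that count. The melanocyte list holds Kit, the gene of CD117, by which Mc were sorted. These counts describe the arrays and do not test the labels. Melanocyte markers also stood high in DP, where 10 of 11 were above the mean of the other populations. Their summed signal was 17783 to 28569 in DP, 41662 to 44092 in Mc and 4535 to 14316 in DF, against at most 1032 in Mx and ORS. The arrays came from 2 chip lots, with both Mx arrays and replicate 1 of the others in the first, and all were scanned on 1 day. Replicate 2 of DP and of Mc was run under another fluidics protocol.

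The median level of the members was lowest on the 2 DP arrays. Of 79 tested members 39 were lower in DP than in the mean of the other 4 populations and 1 (Cox6b2) was higher, where 16.5% of all 5253 genes tested were called lower and 21.4% higher. Cox6b2 passed the filter through ORS and DP alone. The median difference over the 79 members was −0.51 (a factor of 1.42) beside 0.01 for all probe-sets tested. The complexes had medians of −0.46 for complex I, −0.42 for II, −0.55 for III, −0.52 for IV and −0.56 for V. In the same order 16 of 32, 2 of 4, 6 of 8, 5 of 9 and 9 of 17 members were called lower. The 7 assembly and associated genes tested had a median of −0.04 and 1 called. For Cox7a2l, the brightest of them and not called, other tested probe-sets gave −0.54 (adjusted p = 0.0286) and −0.44 (adjusted p = 0.0512). Of 5 assembly genes tested outside the symbol rule 2 were lower in DP, with a median of −0.29. Both DP arrays lay below all 8 other arrays for 45 of 79 members, against 7.63% of all genes, among them 14 of 17 in complex V and 7 of 8 in complex III. In sorted bulk populations, fewer cells with a transcript and less of it per cell cannot be told apart.

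**Figure D1:**
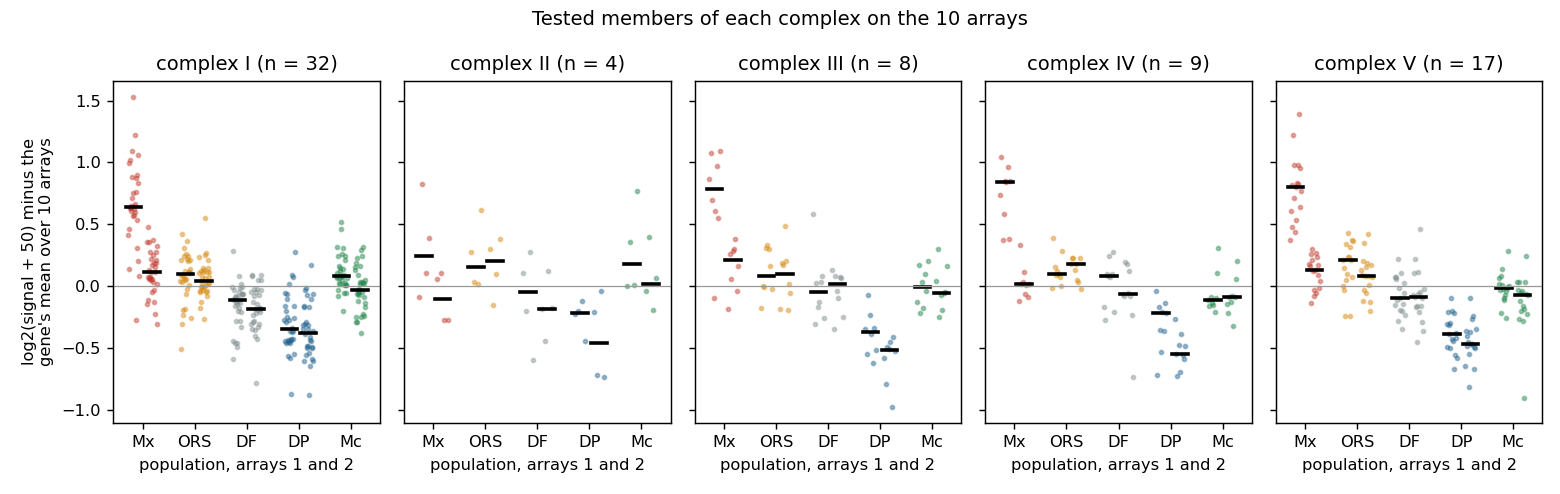
Level of every tested member of each complex on the 10 arrays, as log2(signal + 50) minus the gene's own mean (y axis), by population (x axis, replicate 1 left and 2 right). Points are genes and black bars their medians. Both DP arrays have the lowest medians in complexes I, III, IV and V, and the Mx bars are far apart, at 0.81 and 0.13 in complex V.

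The low DP level did not rest on Mx. With both Mx arrays left out, 37 of 78 members (47.4%) were lower in DP than in the mean of ORS, DF and Mc and 0 higher, by a median of −0.40, with 14.8% of all genes called lower and 17.2% higher. Within each chip lot all 8 complex III genes were below the mean of the lot's other populations in DP, and the median over the 79 members was −0.45 in the first lot and −0.38 in the second, which holds no Mx array. Against single populations the counts were uneven. Mx exceeded DP in 56 of 79 members and was below it in 3 (24% and 34.4% of all genes), and ORS exceeded DP in 22 and was below it in 0 (20% and 21.1%). Mc exceeded DP in 10 and was below it in 1 (10.6% and 20.7%), and DF exceeded DP in 3 and was below it in 0 (11.7% and 7.77%), shares of higher calls that lay near or under the background. The median log2 difference was still 0.36 for Mc over DP and 0.28 for DF over DP. The comparisons share arrays, and each is given for its own values. The count of calls was lower with either DP array left out, and also without Mc replicate 1. With 1 DP array the comparison has less precision for every gene, and shares of all genes called were not counted. The median was −0.54 without DP replicate 1 and −0.43 without DP replicate 2. In these fits the lone array is assumed to vary like the other groups.

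S phase and mitosis markers were also low in DP and high in Mx, but unlike the members they had many calls in ORS and Mc. Of 21 tested S phase and mitosis markers 20 were lower in DP and 14 lower in Mc, while 19 were higher in Mx and 20 in ORS, and their summed signal was 6718 to 7321 in DP, 8835 to 9316 in Mc, 11481 to 12521 in DF, 20596 to 25215 in ORS and 18741 to 21882 in Mx. The median difference of these markers was −0.99 in DP and −0.53 in Mc. Of 79 members 1 was called lower in Mc, against 29.4% of all genes. The part of cell division, or of the melanocyte transcripts in DP, in the low DP level was not tested. Nor was that of pericyte and Schwann cell markers, of which 6 of 10 and 4 of 4 tested were higher in DP. Brightness was set beside it with a bound of 1000 on the mean signal, chosen after the values were seen. Of 43 members above it 24 were lower in DP (55.8%) with a median of −0.53, against 91 of 457 other genes (19.9%) with a median of −0.16.

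**Figure D2:**
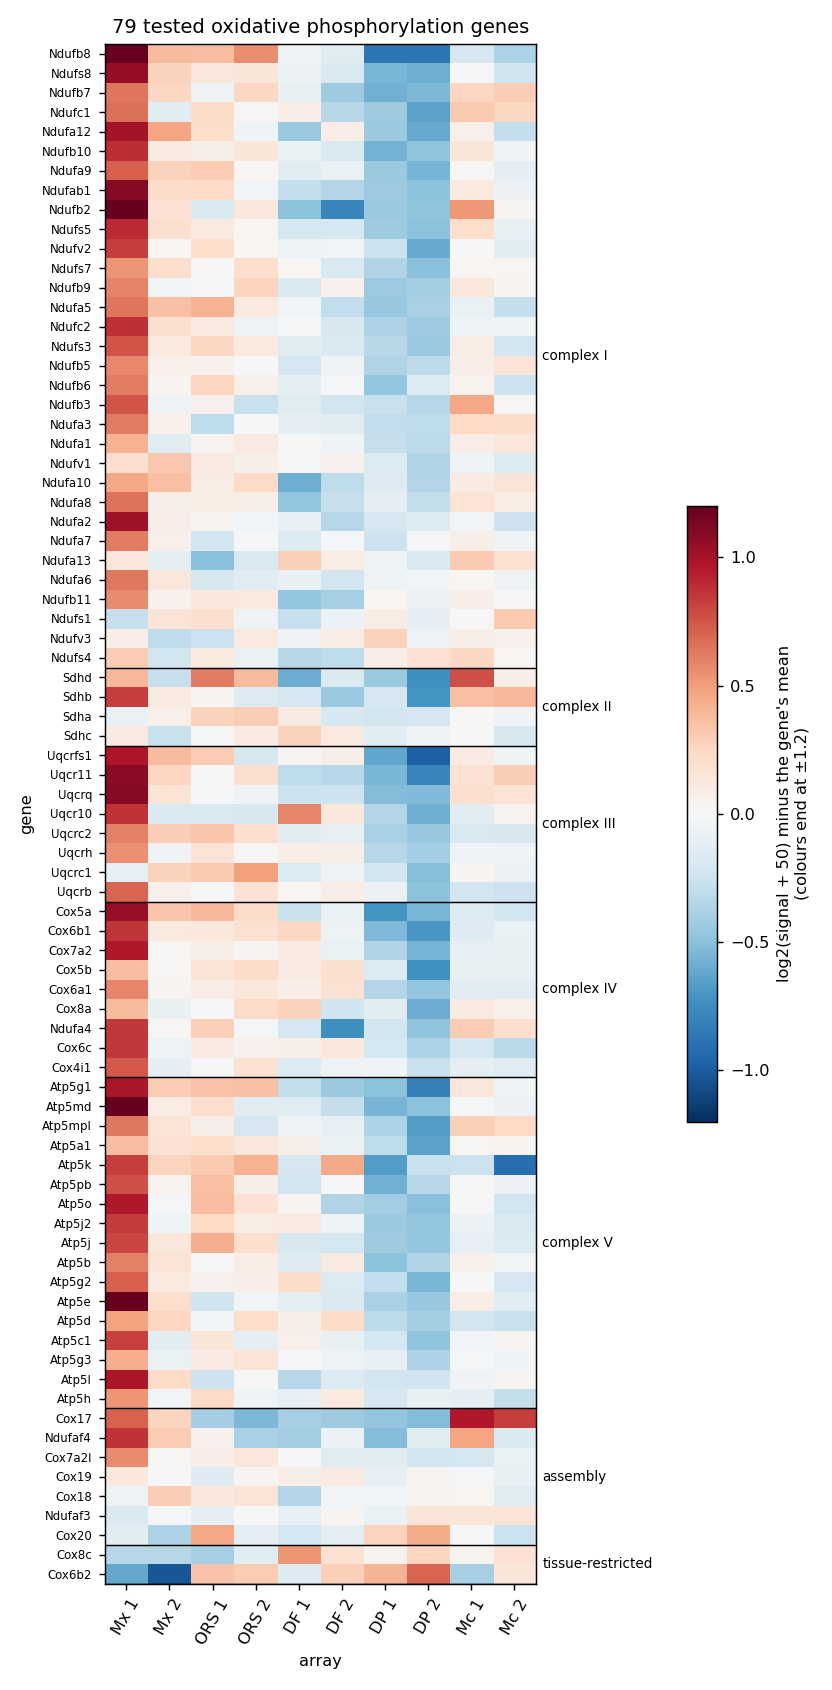
The 79 tested members (rows, by complex, each ordered by its difference in DP) on the 10 arrays (columns), coloured by log2(signal + 50) minus the gene's mean. Mx replicate 1 is red and the 2 DP columns are blue through most of complexes I to V, and Cox17 and Cox6b2 break the pattern.

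In complex I the widest range belonged to Ndufb8, an accessory subunit of the membrane arm. Its signal was 700.1 and 695 in DP, 1139 and 1000.4 in Mc, 1278 and 1188 in DF, 1717 and 1959 in ORS and 3145 and 1726 in Mx. The 2 DP arrays agreed closely and lay below every other array. It was 2.13-fold lower in DP than in the other populations (log2 −1.09, SE 0.19, adjusted p = 0.00074), and was called without either DP array. Ndufb2, another accessory subunit, was called lower in DF, at 705 and 566 (adjusted p = 0.0432), but DP was as low, at 731 and 707 (adjusted p = 0.114), so that this gene was low in both mesenchymal populations. The DF call was lost in 13 of 22 alternatives, and the gene's other tested probe-set gave −0.24 there (adjusted p = 0.399). Ndufa10 (523 and 647 in DF, adjusted p = 0.0099) and Ndufb11 (1195 and 1246 in DF, adjusted p = 0.0186) were the other complex I subunits among the leading DF calls. For Ndufb11 both DF arrays lay below all others and DP, at 1690 and 1586, was level with Mc at 1760 and 1641. Its other 2 tested probe-sets gave −0.47 (adjusted p = 0.0286) and −0.0011 (adjusted p = 0.997) in DF, and the call was lost in 3 of 22 alternatives, namely without either DF array and with the mean of the probe-sets. At the other end stood Ndufv3, a small subunit of the NADH-binding module, with population means within a factor of 1.16 and signals of 815 to 1242 on the 10 arrays (F test over populations, adjusted p = 0.835).

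In complex II all 4 genes had a negative difference in DP, and 2 were called. Sdha encodes the flavoprotein and Sdhb the iron-sulfur subunit, while Sdhc and Sdhd anchor the enzyme in the membrane. Sdhd was 365 and 289 in DP, 323 and 449 in DF, 688 and 417 in Mx, 817 and 684 in ORS and 913 and 543 in Mc. Thus DF and DP were low and ORS high, but the Mx and Mc replicates were wide apart and overlapped several groups. The gene was called higher in ORS (1.54-fold, adjusted p = 0.0437) and lower in DP (1.67-fold, adjusted p = 0.0196). The ORS call was lost in 12 of 22 alternatives. Sdhb was 1135 and 777 in DP and 1694 and 1741 in Mc, with 2368 and 1419 in Mx, and was lower in DP (1.49-fold, adjusted p = 0.0365). Without DP replicate 2 that difference was −0.32 (adjusted p = 0.422). Sdha ranged from 561 to 827 (F test, adjusted p = 0.173) and Sdhc from 441 to 667 (adjusted p = 0.515), with no call in any population. Sdhc was read from a probe-set that can match several transcripts.

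All 8 complex III genes had their lowest mean in DP. Uqcrfs1, the Rieske iron-sulfur protein, was 444 and 336 in DP, 763 and 683 in Mc, 728 and 750.4 in DF, 890.3 and 615 in ORS and 1444 and 940 in Mx. Both DP arrays lay below the other 8, and the gene was 2.00-fold lower in DP (SE 0.19 on the log2 scale, adjusted p = 0.00124). Uqcr11, a small supernumerary subunit, was 629 and 521 in DP and 750 and 729 in DF, against 939 to 2042 elsewhere. It was lower in DP (1.79-fold, adjusted p = 0.00451), though not when DP replicate 2 was left out (adjusted p = 0.0838). Uqcrc1, a core protein, had another pattern within the complex. Its highest signals were those of ORS, 1818 and 2061, followed by Mx replicate 2 at 1779, and Mx replicate 1 was only 1360. It was called higher in ORS (1.41-fold, adjusted p = 0.0238) and lower in DP (1.38-fold, adjusted p = 0.032). The narrowest of the complex was Uqcrh, the hinge protein, at 771 to 813 in DP and 1004 to 1548 elsewhere (DP against the others, 1.38-fold lower, adjusted p = 0.0379).

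In complex IV the widest range was that of Cox5a, a subunit on the matrix side. Its signal was 1193 and 1351 in DP, 1782 and 1713 in Mc, 1650 and 1894 in DF, 2636 and 2349 in ORS and 4167 and 2534 in Mx. Both DP arrays were lowest, DF and Mc overlapped, and Mx overlapped ORS above them. It was 1.73-fold lower in DP (adjusted p = 0.00404), and its other 2 tested probe-sets were also lower there, by −0.98 and −1.22. Of the ubiquitous partners of tissue-restricted forms, Cox6b1 (1.70-fold, adjusted p = 0.00584), Cox6a1 (1.43-fold, adjusted p = 0.0221) and Cox7a2 (1.49-fold, adjusted p = 0.0426) were lower in DP. Cox8a (1677 to 3334 on the 10 arrays, adjusted p in DP = 0.0755, from a probe-set that can match several transcripts), Ndufa4 (881 to 2738, adjusted p = 0.128) and Cox4i1 (2171 to 4422, adjusted p = 0.468) were not called. Other tested probe-sets gave −0.63 in DP for Cox8a (adjusted p = 0.012) and −0.37 for Cox7a2 (adjusted p = 0.217). For these genes the call thus depended on the probe-set. Those of Cox6b1 (−0.54, adjusted p = 0.0389) and Cox6a1 (−0.59, adjusted p = 0.0084) were also lower in DP. Cox4i1, the main form of subunit IV, had the narrowest range of population means in the complex, a factor of 1.38, and 8 of its 10 signals lay between 2171 and 2605.

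In complex V 9 of 17 members were lower in DP. Its c subunit, the rotating ring of ATP synthase, is made from 3 genes, Atp5g1, Atp5g2 and Atp5g3, that differ in their import sequences and yield the same mature protein. Atp5g1 was 654 and 514 in DP, 765 and 677 in DF, 1040 and 905 in Mc, 1204 and 1213 in ORS and 1904 and 1174 in Mx. The order DP, DF, Mc, ORS and Mx held by means, with the Mx replicates on either side of ORS. Atp5g1 was 1.77-fold lower in DP (adjusted p = 0.00349), though not when DP replicate 2 was dropped (adjusted p = 0.0841). Atp5g2 was 1684 and 1405 in DP and 1804 to 3442 elsewhere (1.44-fold lower in DP, adjusted p = 0.0359). Atp5g3 was the steadiest gene of the complex, with 4135 and 3411 in DP, 4194 to 6009 elsewhere and no call in any population. The 3 genes were thus unequal in their range over populations, which was a factor of 2.46 for Atp5g1, 1.79 for Atp5g2 and 1.33 for Atp5g3. Their difference from each other was not tested. Atp5k, the small subunit e, was the only subunit called lower in Mc, with 1969 and 1244 there, 1467 and 1963 in DP and 2058 to 4248 elsewhere. The groups of Mc and DP overlapped, and the call (1.65-fold, adjusted p = 0.0187) was lost without Mc replicate 2 (log2 −0.41, adjusted p = 0.327) and with the mean of the gene's probe-sets (−0.28, adjusted p = 0.147).

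**Figure D3:**
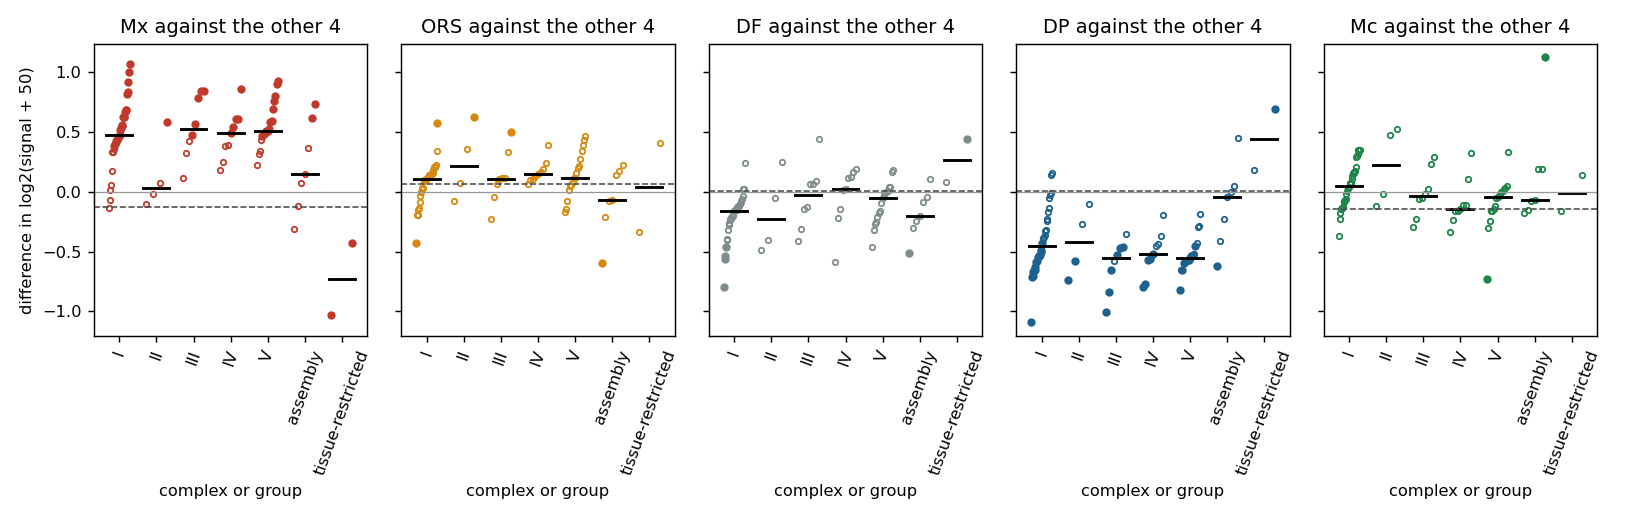
Difference of each population from the mean of the other 4 in log2(signal + 50) (y axis) for the 79 tested members, by complex or group (x axis). Filled points have an adjusted p under 0.05, black bars are medians and the dashed line is the median of all probe-sets tested. The bars of complexes I to V lie between −0.42 and −0.56 in DP.

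Promoter letters are shown because the members moved together in DP. Of the 90 genes 74 had a promoter in RefSeq's GRCm38.p6 table, in 80 windows from 250 bases before to 50 after the start, matched by gene ID. Motifs were searched on both strands: GCGCA and GCGC with any base between them, bound by NRF1, CCGGAAG, bound by ETS factors such as GABP, AAGATGG, bound by YY1, and TCAAGGTCA, bound by estrogen-related receptors, all known as regulators of respiratory genes. NRF1 letters stood in 17 of the 80 windows (21.2%), against 8.0% of 12559 windows of genes on the array and 4.6% of all 32851. ETS letters stood in 22 (27.5%, against 14.0% and 8.9%), YY1 letters in 11 (13.8%, against 6.6% and 6.3%) and receptor letters in 2 (2.5%, against 0.3% and 0.4%). No matches of different motifs shared a base in a member's window. Of the 74 genes 33 held NRF1 or ETS letters and 4 held both. Examples from genes described here follow, on the minus strand as each gene runs, with the motif in capitals in either orientation. For Sdhd, called in ORS and DP, both kinds are shown from chr9:50603910-50603937 and chr9:50603878-50603905. Uqcr11 and Cox6b1, lower in DP, are read from chr10:80406870-80406897 and chr7:30626125-30626152, and Atp5k, lower in Mc, and Atp5g2, lower in DP, from chr5:108434431-108434458 and chr15:102671071-102671098.
Sdhd, NRF1: cgctggggtGCGCACGCGCggtggcagc
Sdhd, ETS: cgtctcctgcCTTCCGGttcacgcttca
Uqcr11, ETS: tctctcctccCCGGAAGtagatgtcaat
Cox6b1, ETS: cctctcgcagCTTCCGGccagtcggaat
Atp5k, NRF1: ttcactgcgGCGCATGCGCctttctggc
Atp5g2, NRF1: gctccggccGCGCATGCGCagagccttc
The Atp5k and Atp5g2 windows hold the same core letters. Letters stood also before the start of Sdha (NRF1) and Atp5g3 (estrogen-related receptor), which had no call in any population. Whether matches go with calls was not tested. A match is a description of letters, and factor binding was not measured.

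In Mx 48 of 79 members were higher than in the mean of the other populations and 2 (Cox6b2 and Cox8c) lower, against 22.2% and 34.8% of all genes. The median over the 79 was 0.48 beside −0.13 for all probe-sets. Among the 48, Ndufaf4 reached the bound on both arrays in Mx alone, and Cox6b2 and Cox8c stayed under it there. The medians were 0.47 for complex I, 0.52 for III, 0.49 for IV and 0.51 for V, with 22 of 32, 5 of 8, 5 of 9 and 13 of 17 called higher, and 0.03 for complex II with 1 of 4. After quantile normalization 31 were higher, and the median relative to all probe-sets fell from 0.62 to 0.14 in complex IV and from 0.64 to 0.32 in complex V. This result rested on Mx replicate 1. That array lay above all 8 arrays of the other populations for 66 of 79 members, and Mx replicate 2 for 13, against 18.4% and 18.1% of all genes. The share for Mx replicate 2 is thus near the background. Both did for 12, which as a share is near the background of 11%. Without Mx replicate 1 the count fell and the median was 0.16, while without Mx replicate 2 the count rose and the median was 0.75. Shares of all genes called were not counted in these fits, which leave 1 Mx array.

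**Figure D4:**
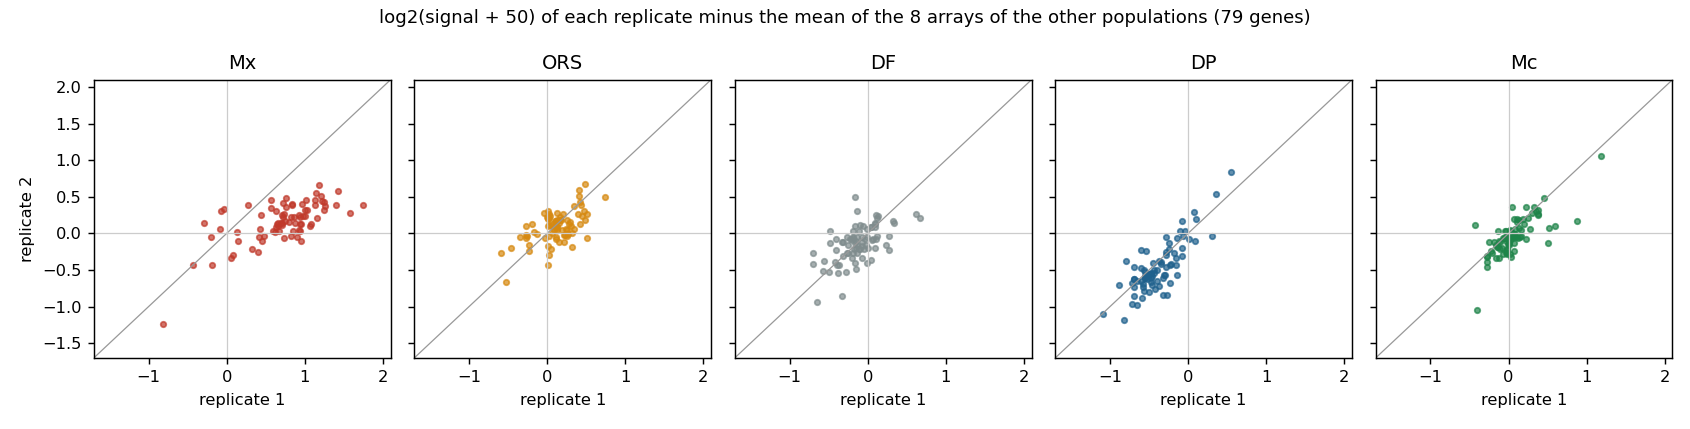
Replicate 2 (y axis) against replicate 1 (x axis) for the 79 tested members in each population, each as log2(signal + 50) minus the mean of the 8 arrays of the other populations. The diagonal marks equal replicates. The Mx points fall below the diagonal, with 72 of 79 genes higher on replicate 1, and the DP points gather along it below 0.

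The genes with the largest Mx differences show the gap. Ndufb2 was 3018 on Mx replicate 1 and 1143 on replicate 2, where ORS was 884 and 1110 and Mc 1472 and 1033. Its call (2.09-fold, adjusted p = 0.00518) fell to 0.38 on the log2 scale without replicate 1 (adjusted p = 0.177). Atp5md, a small membrane subunit of ATP synthase, was 1070 and 405 in Mx and 241 to 444 elsewhere, and its call (1.90-fold, adjusted p = 0.00724) was lost likewise (0.27, adjusted p = 0.22). In both genes the second Mx array lay inside the range of other populations. Ndufb8 kept its call without replicate 1 (1.49-fold, adjusted p = 0.0165), as did Cox5a (1.42-fold, adjusted p = 0.0315). For Cox5a, however, Mx replicate 2 at 2534 lay between the 2 ORS arrays. Among 43 members with a mean signal over 1000 the gap between the Mx replicates had a median of 0.60, and among 457 other genes as bright 0.11.

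The remaining populations had few calls. In ORS 3 members were higher (Sdhd, Ndufb8 and Uqcrc1) and 2 lower (Cox17 and the complex I subunit Ndufa13), against 17.9% and 16.4% of all genes. Without Mx arrays, 20 of 78 were higher in ORS than in DF, DP and Mc and 3 lower, near the background of 26.6% for higher calls and below that of 26% for lower calls. DF had 1 higher (Cox8c) and 5 lower (Ndufb2, Ndufa10, Ndufb11 and Ndufa8 of complex I, and Cox17), against 21.1% and 8.99% of all genes, and the medians of the 5 complexes lay between −0.23 for complex II and 0.02 for complex IV. Without Mx arrays DF had 1 higher and 6 lower of 78 (19.5% and 9.93%). Both ORS arrays lay above all others for 2 members (8.49% of all genes) and below for 1 (2.44%), and both DF arrays above for 1 (12.4%) and below for 3 (3.26%). Mc had 1 higher (Cox17) and 1 lower (Atp5k), against 16.1% and 29.4%, and 12 higher and 1 lower without Mx arrays (16.4% and 33.5%). In pairs, Mx exceeded DF in 31 members and was below it in 2 (20% and 32.1%), exceeded Mc in 19 and was below it in 1 (25.1% and 24.2%), and exceeded ORS in 3 and was below it in 1 (4.25% and 15.5%). ORS exceeded DF in 4 and was below it in 2 (15% and 20.3%), and exceeded Mc in 2 and was below it in 2 (25.5% and 16.1%), while DF exceeded Mc in 0 and was below it in 4 (25.3% and 11.8%). Counts and medians in these populations moved with the scaling, as did those of all probe-sets. In Mc the median was −0.02 as deposited (all probe-sets −0.14), 0.15 after quantile normalization (−0.02), with 10 higher and 1 lower, and 0.10 after scaling to a common trimmed mean (−0.03), with 6 higher and 1 lower. Relative to all probe-sets it was 0.12, 0.17 and 0.13. In ORS the median was 0.11 (all probe-sets 0.06), and −0.02 (−0.07), with 0 higher and 3 lower, when arrays were centred on the probe-sets at 200 or more throughout, which is 0.05 relative to all probe-sets in either case. Under the same 3 scalings the median stayed negative in DP, from −0.55 to −0.36 with 21 to 42 lower and 1 or 2 higher, and positive in Mx, from 0.34 to 0.59. The medians of all probe-sets moved in Mx from −0.13 to −0.01 and in DF from 0.01 to −0.10 after quantile normalization.

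Cox17, the copper chaperone that supplies cytochrome c oxidase during assembly, was the member with the strongest difference in Mc. It was 712 and 646 in Mc, 590 and 420 in Mx and between 218 and 247 on all 6 arrays of ORS, DF and DP. The Mc and Mx arrays thus lay well above the others, with every Mc array above every Mx array. It was 2.18-fold higher in Mc (log2 1.12, SE 0.15, adjusted p = 5.54e-05) and lower in ORS (1.51-fold, adjusted p = 0.00815), DF (1.43-fold, adjusted p = 0.0209) and DP (1.54-fold, adjusted p = 0.00634). Its higher level in Mx (1.53-fold, adjusted p = 0.00418) was 1.31-fold without Mx replicate 1 (adjusted p = 0.0639). The probe-set can match several transcripts, and the gene's other probe-set read 2.4 to 5.8 on all arrays. Cox15, which acts in making heme A for the same enzyme, was below the bound of 200 everywhere, with 155 and 191 in Mc and 21.9 and 62.3 in Mx.

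**Figure D5:**
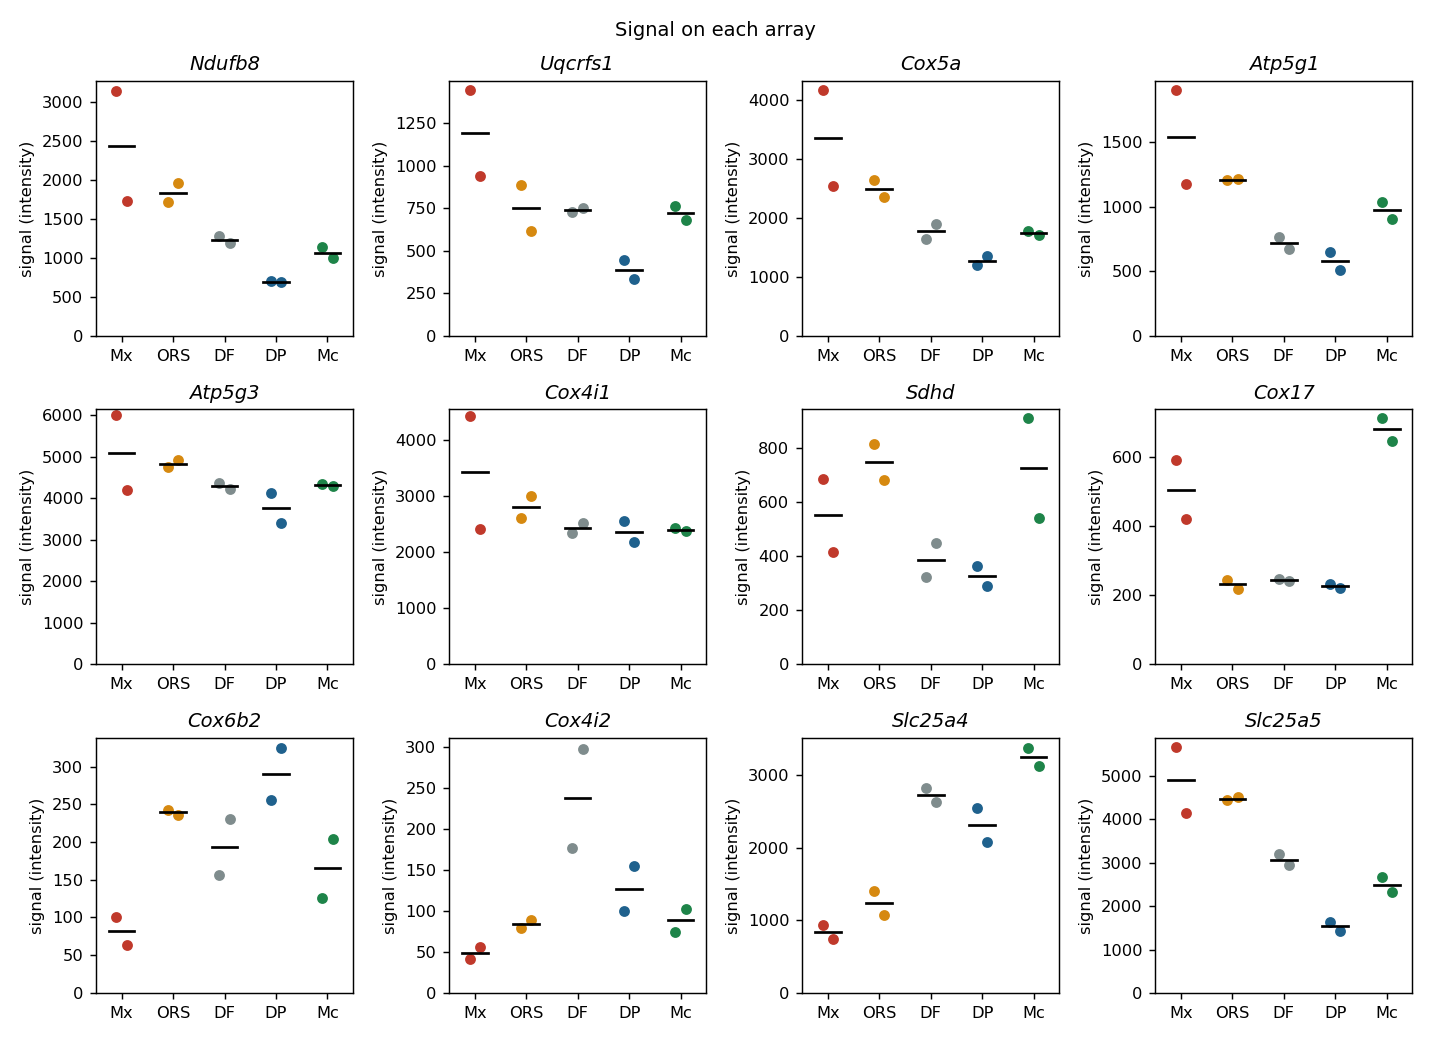
Signal (intensity, linear y axis from 0) on each array for 12 genes named in the text, by population (x axis). Points are arrays and bars population means of 2. Ndufb8, Uqcrfs1, Cox5a and Atp5g1 are lowest in DP, Cox17 lies at 420 or more in Mx and Mc and at 247 or less elsewhere, and Slc25a4 and Slc25a5 run in opposite orders between epithelium and Mc.

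The tissue-restricted forms of complex IV subunits did not follow the ubiquitous ones. Cox6b2, known as a testis form, was 256 and 325 in DP, 243 and 236 in ORS, 157 and 231 in DF, 126 and 204 in Mc and 101 and 63.0 in Mx. Both Mx arrays were below all others and both DP arrays above. It was lower in Mx (2.04-fold, adjusted p = 0.000562, and 2.35-fold without replicate 1). It was also the only member higher in DP (1.62-fold, adjusted p = 0.0121), which did not hold when DP replicate 2 was dropped. The gene reached 200 on both arrays in ORS and DP alone, so that it was tested only through populations where it is high. Cox8c, also known from testis, was 372 and 281 in DF and 171 to 299 elsewhere (DF against the others, 1.36-fold higher, adjusted p = 0.0445). It reached the bound on both arrays in DF, DP and Mc alone. Cox4i2, an alternative form of subunit IV known from lung, did not reach the bound on both arrays of any population. Its signal was 176 and 298 in DF, 99.6 and 155 in DP and 41.1 to 103 on the other 6 arrays. In a fit without the filter it was higher in DF by 1.07 on the log2 scale (adjusted p = 0.00644). Cox7a1, the heart and muscle form, was 56.2 and 65.0 in DF and 2.3 to 22.6 elsewhere, and was also higher in DF in that fit (adjusted p = 0.000365), all at low signals. Cox6a2, a muscle form, was 33.5 to 84.7 and Cox8b, another, 4.3 to 18.1, with no call in DF. DF also had all 10 tested pericyte and smooth muscle markers higher. Their summed signal was 24688 to 31389, against 532 to 8536 on the other arrays. Of these 10, 6 were higher in DP too and 5 in ORS. Endothelial markers summed to 5192 to 6242.5 in DF and 266.7 to 906.5 elsewhere, and red blood cell markers to 4262 to 5221 and 47.6 to 98.8. Of 12 and 6 on the array, 6 and 2 were tested, nearly all through DF alone, so no calls are given for them. Of 4 Schwann cell markers tested 3 were higher in DF and 4 in DP. By contrast 0 of 26 skeletal muscle markers on the array reached the bound (summed 881 to 1077 in DF and 496 to 827 elsewhere). Endothelial cells were to be removed from DF by the CD34 depletion. The part of these cells in the Cox4i2 and Cox7a1 values was not tested.

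The range of the members over populations was set beside that of all genes. Of the 75 at 200 or more on all arrays, 56 (74.7%) stayed within 2-fold over the population means, against 69.3% of the 2156 such genes in all. The median range of population means was a factor of 1.73 over all 90 members, dim ones included. It was 1.7 over the 2156 genes at 200 or more on all arrays, so the 2 medians come from unlike sets. The F test over populations called 44 of 79 members, against 70.2% of all genes, and 20 of 79 differed at least 2-fold in some pair, against 50.6%. The pair with the most was Mx and DP, with 17 members at least 2-fold higher in Mx and 1 in DP. The share of all genes at 2-fold was not counted for that pair alone. Its Mx values include replicate 1, which stood apart for these genes.

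Neighbouring mitochondrial genes were read from lists. Their counts stand against the shares of all genes called higher and lower, which were 22.2% and 34.8% in Mx, 17.9% and 16.4% in ORS, 21.1% and 8.99% in DF, 21.4% and 16.5% in DP and 16.1% and 29.4% in Mc. In the list of electron carriers outside the rule, 4 of 8 tested were lower in DP and 1 higher, and 3 were higher in Mx. Cytochrome c itself (Cycs) was 893 and 1073 in DP, 1061 and 1675 in DF, 1616 and 1639 in Mc, 1783 and 1726 in ORS and 2954 and 1963 in Mx. It was 1.74-fold lower in DP (adjusted p = 0.00608). The complex III subunit Cyc1, whose symbol lies outside the rule, was 1195 and 961 in DP and 1272 to 2250 elsewhere, and was 1.58-fold lower (adjusted p = 0.00483). Both DP arrays lay below all others for Cyc1, while for Cycs DP replicate 2 overlapped DF. Etfdh, which passes electrons from fatty acid oxidation to ubiquinone, was 346 and 222 in ORS and 144 to 181 elsewhere. It reached the bound of 200 on both arrays in ORS alone, so that it was tested only through the population where it is high, and no call is given for it. Of 5 assembly genes outside the rule that were tested, 2 were lower in DP, 1 higher in each of Mx and ORS, and 1 lower in each of ORS, DF and Mc. Acad9, an assembly factor of complex I, had the widest differences, with 748 and 960.2 in ORS, 316 and 386 in Mx and 105 to 196 elsewhere (3.96-fold higher in ORS, adjusted p = 1.08e-06). Pet100, which assembles complex IV, was lower in ORS (280.1 and 331, adjusted p = 0.0343), and Uqcc2, which assembles complex III, in DP (376 and 372, adjusted p = 0.0394).

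The adenine nucleotide carriers, which exchange ADP and ATP across the inner membrane, ran in opposite directions. Slc25a4, the form prominent in heart and muscle, was 941 and 737 in Mx, 1401 and 1069 in ORS, 2824 and 2636 in DF, 2552 and 2078 in DP and 3385 and 3133 in Mc. Slc25a5, the form prominent in dividing cells, was 5667 and 4148 in Mx, 4444 and 4510.1 in ORS, 3193 and 2944 in DF, 1646 and 1436 in DP and 2675 and 2325 in Mc. Neither gene's epithelial arrays overlapped those of the mesenchyme or Mc. Slc25a4 was lower in Mx (2.59-fold, adjusted p = 1.67e-05) and Slc25a5 lower in DP (2.29-fold, adjusted p = 6.64e-05), and the Mx difference was 2.91-fold without Mx replicate 1. Of the 15 carriers and pores tested, 6 were higher and 1 lower in Mx, and 2 were lower in DP. Tomm22, an import receptor, was 1.66-fold higher in Mx (697 and 496, against 272 to 517).

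Of 17 citric acid cycle and pyruvate dehydrogenase genes tested, 5 were higher and 3 lower in Mx, 3 and 1 in ORS, 1 and 3 in DF, 1 and 3 in DP and 3 and 2 in Mc. The 3 lower in DP are a share near that of all genes. Their median difference in DP was −0.14. Fh1 (fumarate hydratase) was 1976 and 1414 in Mx, 1320 and 1084 in ORS and 471 to 842 elsewhere, and was higher in Mx (2.07-fold, adjusted p = 0.000415, and 1.76-fold without replicate 1). Idh2, the mitochondrial NADP-dependent isocitrate dehydrogenase, went the other way, with 182 and 199 in Mx, 451 and 420 in ORS and 603 to 811 elsewhere (2.85-fold lower in Mx, adjusted p = 2.29e-06). Ogdh, a subunit of the oxoglutarate dehydrogenase complex, was highest in Mc (458 and 681, against 98.8 to 276, 2.32-fold, adjusted p = 0.000673). Of 7 mitochondrial antioxidant and uncoupling genes tested, 1 was higher and 2 lower in Mx, 2 were higher in DF, 1 higher and 1 lower in DP and 1 higher in Mc. Nnt, the transhydrogenase that makes mitochondrial NADPH, was 603 and 653 in DP, 418 and 438 in DF, 200 to 288 in ORS and Mc and 44.4 and 60.6 in Mx. It was higher in DP (2.68-fold, adjusted p = 7.83e-06) and lower in Mx (3.97-fold, adjusted p = 5.16e-07). Prdx3, a mitochondrial peroxidase, was higher in Mc (759 and 531, adjusted p = 4.94e-05), and Gpx1, a glutathione peroxidase, was higher in DF (1.59-fold, adjusted p = 0.00657) and lower in DP (1.59-fold, adjusted p = 0.00612). Of 7 regulators of mitochondrial biogenesis tested among 20 on the array, 1 was higher and 2 lower in Mx, 1 lower in ORS, 2 higher in DF, 2 higher and 1 lower in DP and 1 higher and 3 lower in Mc. Myc, a growth regulator, was 91.3 and 76.5 in DP and 176 to 379 elsewhere (2.18-fold lower in DP, adjusted p = 0.000109). Ppargc1b, a coactivator of respiratory genes, was higher in DF (254 and 452, adjusted p = 0.00831), where no complex had a raised median beyond 0.02. Mitf, the melanocyte factor, was 2736 and 3208 in Mc and 1334 and 594 in DP, beside the melanocyte markers described above.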

How the data were processed

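RNA of each sorted population was amplified once, labelled and hybridised to Affymetrix MOE430A arrays. The authors deposited linear signal intensities that, per the submitters' processing notes, come from MAS 5.0. Arrays have no sequencing depth, and 2 arrays per population limit the precision. Genes were named by the platform annotation (20380 of 22626 probe-sets with 1 gene). There were 9 probe-sets with several symbols that matched the rule, and these were left out, with 10 symbols reached only through them. Symbols are those of the annotation.

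Probe-sets (8054) were fitted with limma 3.58.1 in R 4.3.3, with one coefficient per population, no blocking term, and contrasts of each population with the mean of the other 4, the 10 pairs and an F test. The fit left 5 residual degrees of freedom and 7.46 more from the prior, and the median residual SD was 0.208. p-values were adjusted by Benjamini-Hochberg over all probe-sets within a comparison, and background shares count the 5253 genes tested. Shifts of complexes are medians with no test. The fit was tested on simulated data. Python 3.11.15, numpy 2.4.6, pandas 2.3.3 and matplotlib 3.10.9 were used.

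The members, lists and tests were chosen with earlier results of these data known. Genes named are the 4 largest called differences of each population, the widest and narrowest range of each complex, complex II, the tissue forms and their partners, the c subunit genes, up to 3 called genes of each of 7 pathway lists, and, outside this rule, genes in small counts and Cox15, named after their values were seen. Alternatives were other pseudocounts, filters, scalings, probe-set choices, blocking terms and model settings, and leaving out each array.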

Additional observations from a re-analysis of the deposited data

How the results depend on the processing

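No called difference of a named gene changed sign under an alternative. The shifts of the 5 complexes kept their sign in DP in all 125 values and in Mx in all but 1 of 120 (complex II without Mx replicate 1), while small shifts changed sign in 14 of 125 values in DF, 14 in Mc and 3 in ORS. Of the values for named genes under alternatives, 341 kept their call at an adjusted p under 0.05 and 52 lost it, in the same direction. Most moves were of counts of 5 or fewer. After quantile normalization the Mx count fell from 48 higher to 31 and the shift relative to all probe-sets from 0.62 to 0.14 for complex IV and from 0.64 to 0.32 for complex V. The same setting gave 1 lower in Mx, 0 higher and 9 lower in DF and 10 higher in Mc. Scaling to a common trimmed mean gave 1 lower in Mx, 1 higher in ORS, 0 higher and 8 lower in DF, 6 higher in Mc and 33 genes with a 2-fold difference in place of 20. Centring on bright probe-sets gave 0 higher in ORS, 3 lower in DF, 2 higher and 21 lower in DP and 3 higher in Mc. With no filter, which tests 90 members among more probe-sets, DP had 24 lower in place of 39, Mx 4 lower, DF 3 higher and 3 lower, and Mc 2 higher. With a bound of 100, Mx had 4 lower, DF 2 higher and Mc 2 higher. A pseudocount of 16 gave 1 lower in ORS and 3 lower in DF, and a pseudocount of 1 gave 1 higher and 1 lower in ORS and 0 higher and 3 lower in DF. Leaving out probe-sets that can match several transcripts gave 0 lower in ORS and 0 higher in Mc, and the mean of a gene's probe-sets 2 higher in DP and 0 lower in Mc. With chip lot as a block there were 1 lower in Mx, 1 lower in ORS and 0 higher and 3 lower in DF. Leaving out both Mx arrays, chosen after seeing the data, gave 20 higher in ORS, 0 higher in DP and 12 higher in Mc. The causes were not tested. The other tested probe-sets of the members, 51 for 36 genes, were higher in Mx in 31 and lower in DP in 29.

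The main fit did not treat the replicate number as a pairing. Deviations of same-numbered arrays correlated from −0.046 to 0.34 over pairs of populations. The highest values were those of Mx with ORS (0.34) and DF with DP (0.275), each pair sorted under a common scheme. With the replicate number as a block, DP had 44 lower and 2 higher, Mx 51 higher and Mc 3 higher. A date block was not run, as all arrays were scanned on 1 day.

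With each array left out in turn, counts ranged from 5 to 63 higher and 1 to 2 lower in Mx, from 0 to 2 higher and 4 to 57 lower in DP, from 0 to 8 higher and 0 to 2 lower in ORS, from 0 to 2 higher and 0 to 15 lower in DF and from 1 to 10 higher and 0 to 5 lower in Mc. The 10 higher in Mc and 8 higher in ORS came without Mx replicate 1, and the 15 lower in DF and 5 lower in Mc without Mx replicate 2. The F test called 24 to 66, and 6 to 46 differed 2-fold. Shares of all genes called were not counted in these fits. The relative shift in Mx ranged from 0.23 to 0.96 for complex I, −0.0925 to 0.47 for II, 0.32 to 1.10 for III, 0.12 to 1.17 for IV and 0.26 to 1.13 for V, lowest without Mx replicate 1. In DP it ranged from −0.55 to −0.36 for complex I, −0.61 to −0.29 for II, −0.69 to −0.47 for III, −0.73 to −0.30 for IV and −0.66 to −0.44 for V.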
